A study of Mus musculus with 9 samples.

Results

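A set of 10 genes known from the trophectoderm, the first epithelium of the mouse embryo, was followed in embryonic stem cells with and without the histone deacetylase gene Sirt6. They are 4 genes for keratins of simple epithelia (Krt7, Krt8, Krt18 and Krt19) and 6 for transcription factors (Tfap2a, Tfap2c, Tead4, Cdx2, Gata3 and Elf5). They were taken by symbol from a table of 23366 genes, and all 10 were present. Total RNA was sequenced from 3 wild-type and 3 Sirt6 knockout libraries. The cells of both groups are embryonic stem cells (129 SvJae F1, passage 21) kept in medium with fetal bovine serum and LIF. The sources used here give neither how the knockout was made nor whether it is a single clone. The series also lists 3 samples of wild-type cells deprived of glucose, not analysed here. Nothing in the labels says that the replicates were separate cultures, so p-values measure the spread between these libraries, which may be technical.

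In the blastocyst, TEAD4 works with the coactivator YAP in outer cells to switch on the genes for CDX2 and GATA3, which set up the trophectoderm, and ELF5 maintains the trophoblast stem cells that follow. The AP-2 factors TFAP2A and TFAP2C act beside them, and TFAP2C is also made in embryonic stem cells and germ cells. Keratins form filaments only as pairs of a type II chain (KRT7 and KRT8 here) with a type I chain (KRT18 and KRT19 here). The pair of KRT8 and KRT18 appears early in the embryo, in the trophectoderm, and is shared by primitive endoderm and other simple epithelia.

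Each library held 20107037 to 29267115 counts. Sirt6 itself had 348, 341 and 342 counts in wild-type replicates 1 to 3. The knockout libraries held 12, 6 and 6 Sirt6 counts, in the direction of their labels. Levels are given as CPM (counts scaled to a common library size) with library sizes adjusted by the trimmed mean of M values (TMM). Genes were compared with edgeR's quasi-likelihood test, and "rose" and "fell" are used where the p-value adjusted over all genes by the Benjamini-Hochberg method was under 0.05. At that threshold 55.7% of the 14988 genes tested differed, 27.9% higher and 27.8% lower in the knockout. The groups did not overlap in CPM in 63.2% of the genes tested. A call is therefore common in these libraries, and the sizes of the differences carry more of the description below.

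The promoters of Krt7, Krt8 and Krt18, all on chromosome 15, are shown because the 4 keratin genes rose together in the knockout. No promoter window was available for Krt19, Tfap2c or Tead4. Each line gives the 250 bases before the annotated start, 5′ to 3′ along the gene, from RefSeq on GRCm38.p6. This is not the build listed for the authors' files (mm9). Capitals mark matches to the AP-2 motif GCCNNNGGC in the sequences of Krt7 and Krt18, and to the motif AGATAA of GATA factors in that of Krt8.
Krt7 promoter (chr15:101412153-101412402, plus strand): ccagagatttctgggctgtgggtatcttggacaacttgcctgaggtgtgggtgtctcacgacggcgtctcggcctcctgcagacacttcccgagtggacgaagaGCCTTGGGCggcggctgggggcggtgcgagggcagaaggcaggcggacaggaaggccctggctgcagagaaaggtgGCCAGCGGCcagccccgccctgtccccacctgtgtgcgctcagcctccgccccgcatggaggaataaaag
Krt8 promoter (chr15:102004343-102004592, minus strand): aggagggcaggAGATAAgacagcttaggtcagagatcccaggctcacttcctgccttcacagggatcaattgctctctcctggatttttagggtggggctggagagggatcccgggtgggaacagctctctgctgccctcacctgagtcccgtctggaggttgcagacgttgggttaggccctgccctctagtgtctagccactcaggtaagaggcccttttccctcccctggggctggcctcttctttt
Krt18 promoter (chr15:102027966-102028215, plus strand): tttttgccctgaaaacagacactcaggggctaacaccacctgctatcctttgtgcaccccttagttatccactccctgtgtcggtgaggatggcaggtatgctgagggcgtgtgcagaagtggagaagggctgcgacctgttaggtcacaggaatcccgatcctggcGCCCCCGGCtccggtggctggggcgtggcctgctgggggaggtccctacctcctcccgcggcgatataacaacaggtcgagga

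The Krt7 window held 2 AP-2 matches, whose first bases lie 146 and 70 bases before the start. The Krt18 window held 1, at 83 bases, and the Krt8 window held none but had the GATA match at 239 bases. A promoter was matched for 7 of the 10 genes, in 9 windows. AP-2 matches occurred in 4 of them, those of Krt7, Krt18, Cdx2 and Gata3, against 13.7% of all 32851 windows of the same length. The fixed letters of this motif are all G or C, and the 4 windows hold 66.0%, 60.4%, 55.2% and 70.0% G and C against a median of 52.4% over all windows. The share over all windows is therefore not matched for base composition. The TEAD motif GGAATG was found in 1 window, of Elf5 (12.6% of all windows), and the AP-1 motif TGANTCA in 0 (6.75%). AGATAA was found in the Krt8 window alone (9.99%). Both strands were searched and no matches overlapped. A match is a stretch of letters and not evidence that a factor is bound. Cdx2 and Gata3 held AP-2 matches and, as given below, were near the limit of detection in both groups.

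All 4 simple keratin genes rose in the knockout, by 1.86-fold to 14.2-fold. Krt8 and Krt18 reached the highest levels, and Krt7, close to silent in wild type, had the largest fold change. The 3 regulators that passed the filter on low counts moved in different directions. Tfap2c rose, Tead4 fell, and Tfap2a was lower by a small margin. Cdx2, Gata3 and Elf5, the regulators most closely tied to trophectoderm identity, did not pass the filter and had at most 9 counts in any library.

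Krt8, the type II partner of this early keratin pair, measured 21.6, 20.3 and 21.8 CPM in wild-type replicates 1 to 3. In the knockout it measured 40.9, 35.2 and 42.3 CPM. The lowest knockout library lay well above the highest wild-type library. The log2 fold change was 0.89 ± 0.10 (SE, n = 3 per group), or 1.86-fold (adjusted p = 3.63e-05, edgeR). The annotation lists a processed pseudogene of Krt8 and a long noncoding RNA gene that overlaps Krt8 on the other strand, and reads shared with either could have been split or dropped in counting.

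Krt18, the type I partner of Krt8, measured 5.18, 5.82 and 5.29 CPM in wild type. Its knockout values were 22.7, 26.0 and 30.8 CPM. All 3 knockout libraries lay far above all 3 wild-type libraries. The log2 fold change was 2.28 ± 0.14 (SE), or 4.87-fold (adjusted p = 4.23e-07, edgeR). Krt19, a small type I keratin of simple epithelia, measured 1.45, 1.21 and 1.43 CPM in wild type and 6.52, 6.84 and 7.61 CPM in the knockout. Its log2 fold change of 2.34 ± 0.16, or 5.07-fold, differed from that of Krt18 by less than their standard errors (adjusted p = 9.48e-07, edgeR).

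Krt7, the other type II keratin, gave 5, 0 and 6 counts in wild-type replicates 1 to 3, and knockout replicates 1 to 3 gave 63, 43 and 52. In CPM these were 0.186, 0 and 0.232 against 1.98, 1.76 and 2.60. The knockout libraries lay apart from the wild-type libraries, but the wild-type level rests on 11 counts. Krt7 passed the filter only through its knockout libraries. The log2 fold change was 3.82 ± 0.46 (SE), or 14.2-fold (adjusted p = 4.17e-05, edgeR). The ratio of summed counts per library size was 14.5, with an exact 95% interval of 7.86 to 29.5 that covers counting error only. An antisense gene overlaps Krt7, and the sources used here do not say whether counting used the strand.

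**Figure D1:**
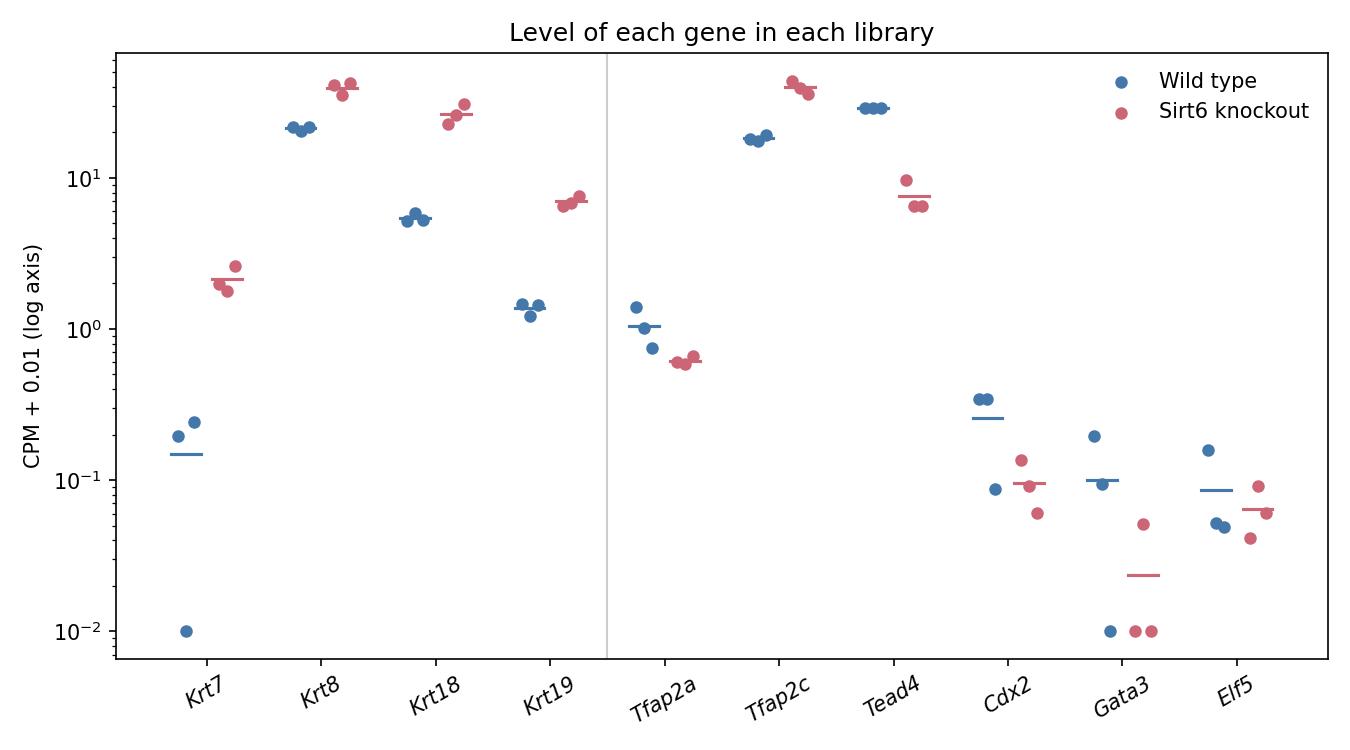
Level of each of the 10 genes in each library, as CPM plus 0.01 on a log axis, with wild-type libraries in blue and Sirt6 knockout libraries in red; points are libraries, bars are group means, and points at 0.01 are counts of 0. The 4 keratins and Tfap2c lie higher in all 3 knockout libraries, Tead4 lies lower, and Cdx2, Gata3 and Elf5 stay below 0.4 CPM in every library.

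The members of each keratin pair did not rise by the same factor. In wild type the count of Krt8 was 4.17, 3.50 and 4.12 times that of Krt18, and in the knockout it was 1.80, 1.35 and 1.37 times as high. The log2 ratio fell by 1.39 from a mean of 1.97 ± 0.14 to 0.58 ± 0.23 (SD, n = 3). The groups did not overlap, and the exact two-sided permutation test gave p = 0.1, the smallest that 3 against 3 allows. This ratio is formed inside each library and does not depend on how libraries are scaled. Per kilobase of exon, Krt8 was at 10.8 ± 0.401 CPM per kb and Krt18 at 3.78 ± 0.236 in wild type (SD, n = 3). In the knockout they were at 20.2 ± 1.91 and 18.5 ± 2.82 CPM per kb, a ratio of 1.11 ± 0.184 in place of 2.88 ± 0.274. The levels of the 2 genes in the knockout thus differed by less than the spread between libraries.

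For the pair of Krt7 and Krt19 the count ratio went the other way, with 0.5 added to each count because of the 0. It was 0.139, 0.0169 and 0.173 in wild type and 0.306, 0.260 and 0.344 in the knockout. The mean log2 difference of 2.02 rests in part on the library with no Krt7 count, since without wild-type replicate 2 it was 0.96 (exact permutation p = 0.1 with all 6 libraries). Krt7 stayed the lowest of the 4 keratins in both groups, at 0.0340 and 0.517 CPM per kb. Krt19 lay between, at 0.866 ± 0.0839 and 4.43 ± 0.356 CPM per kb (SD, n = 3). Among the 21706 genes with a known exon length, the level of Krt8 went from percentile 76.4 to 85.5. Krt18 went from percentile 62.7 to 84.3, Krt19 from 49.1 to 65.1 and Krt7 from 28.9 to 44.3.

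The keratins as a family changed in makeup. In wild type most keratin transcripts came from Krt17 and Krt42, type I keratins known from stratified epithelia and skin appendages. Of the summed CPM per kb of 40 keratin genes, the 4 simple keratins made up 23.4%, 21.7% and 20.9% in the wild-type libraries. In the knockout libraries they made up 81.9%, 83.2% and 82.5%. The means were 22.0% ± 1.29 and 82.5% ± 0.614 (SD, n = 3), and the groups did not overlap (exact permutation p = 0.1, the smallest possible). The share of Krt18 alone went from 5.36% ± 0.452 to 34.9% ± 3.06, and that of Krt8 from 15.4% ± 1.03 to 38.2% ± 2.73.

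The summed level of all 40 keratin genes was lower in the knockout, at 52.8 ± 5.23 against 70.6 ± 4.49 CPM per kb (SD, n = 3). The 4 simple keratins together rose from 15.5 ± 0.292 to 43.6 ± 4.28 CPM per kb. Krt17 fell from 47.3 ± 4.46 to 3.25 ± 0.200 CPM (log2 fold change -3.86 ± 0.13, adjusted p = 2.48e-08, edgeR). Krt42 fell from 31.7 ± 2.15 to 5.49 ± 1.32 CPM (-2.55 ± 0.16, adjusted p = 4.42e-07). Krt16, Krt17 and Krt42 are close relatives, and reads shared among them could have been split in counting. The 20 type II genes made up 15.7% ± 1.17 of keratin CPM per kb in wild type, and 44.6%, 39.0% and 39.5% in the 3 knockout libraries. The 20 type I genes therefore exceeded them in both groups, at 59.6 ± 4.45 against 11.1 ± 0.491 CPM per kb in wild type and 31.2 ± 3.96 against 21.6 ± 2.16 in the knockout.

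**Figure D2:**
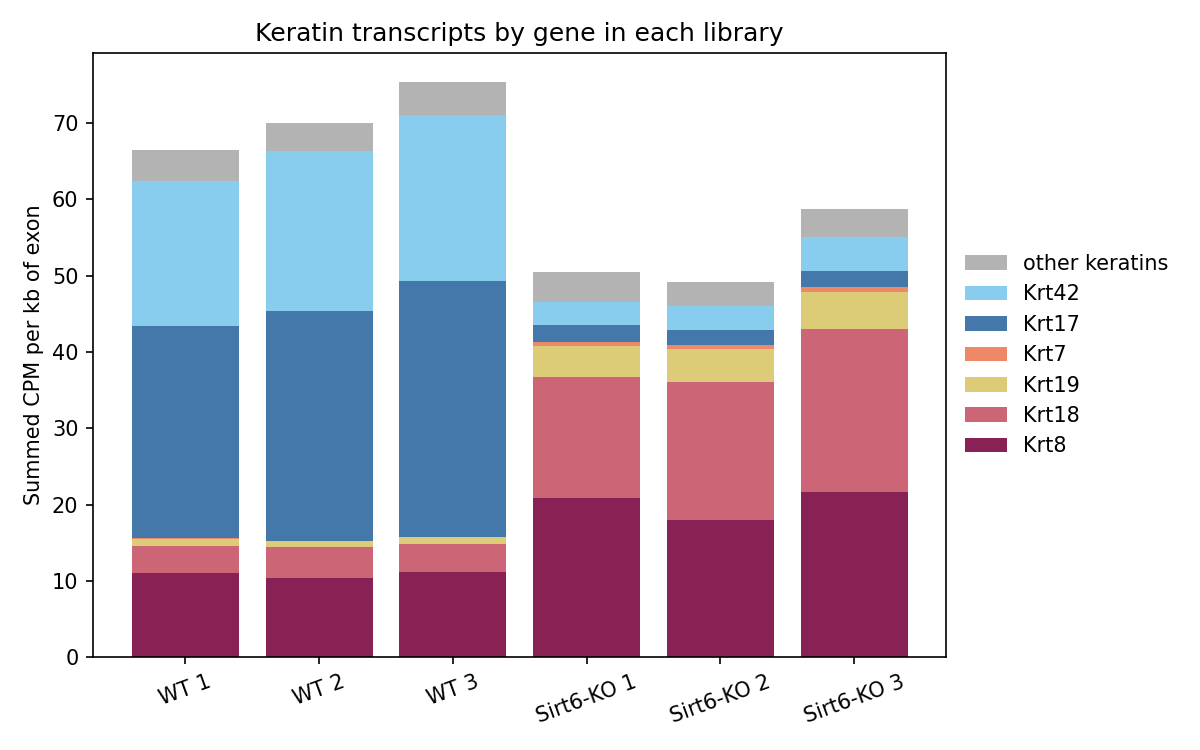
Summed CPM per kilobase of exon of 40 keratin genes in each of the 6 libraries, stacked by gene. Krt17 and Krt42 (blues) make up most of each wild-type bar, and Krt8 and Krt18 (purple and pink) most of each knockout bar; the total is higher in wild type.

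Of the other 36 keratin genes, 28 did not pass the filter, 2 rose and 4 fell. Besides Krt17 and Krt42, Krt13 (log2 fold change -4.07) and Krt16 (-1.29) fell, the latter with an adjusted p of 0.0506 in DESeq2. Krt13 and Krt16 passed the filter only through their wild-type libraries, so a rise could hardly have been called for them. Krt71, a hair follicle keratin, rose by 2.84 on the log2 scale, from 11 to 81 counts summed over each group. It passed the filter only through its knockout libraries. Krt20, an intestinal keratin, rose by 1.64 from 11 to 35 counts, and it too could not have passed the filter without its knockout libraries. That call was lost with DESeq2 (1.67, adjusted p = 0.0677). It was also lost when wild-type replicate 1 or 3 or knockout replicate 2 or 3 was left out (adjusted p of 0.0709 to 0.0963, edgeR), and the estimate was 1.05 without wild-type replicate 1 and 2.52 without wild-type replicate 2. The number that rose was 1 without wild-type replicate 1, wild-type replicate 3 or knockout replicate 2. Tested without a filter 6 rose, with DESeq2 5, Krt20 not among them, and above a mean of 1 CPM 0. Of 20 tested genes for other intermediate filaments and their linkers, 3 rose, 7 fell and 10 did not pass the test, against 27.9% higher and 27.8% lower among all tested genes (5 rose without wild-type replicate 1). Their median log2 fold change was -0.08. Among those that fell were the linker genes Eppk1 (epiplakin, -2.90) and Plec (plectin, -1.57) and the nuclear lamin genes Lmna (-2.41) and Lmnb1 (-0.87).

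The genes lying between Krt7 and Krt8 were mostly too low to test. In RefSeq's gene order, Krt7 and Krt18 enclose a stretch of chromosome 15 with 28 genes of the table, keratin genes and 5 predicted gene models. Krt8 and Krt18 are adjacent at its end and are read from opposite strands. Of these 28 genes, 24 did not pass the filter. The 4 that did were Krt7, Krt71, Krt8 and Krt18, and all 4 rose. Krt7 and Krt71, each with 11 counts in wild type, passed the filter only through their knockout libraries. A fall could therefore hardly have been called for either. Next to Krt18, the translation factor gene Eif4b changed little (log2 fold change 0.14 ± 0.11, adjusted p = 0.297, edgeR). Spryd3 and Igfbp6, which come after it, rose by 0.76 ± 0.12 and 2.87 ± 0.48. Igfbp6, with 9 counts in wild type, also passed the filter only through its knockout libraries. On the Krt7 side Nr4a1 fell (-1.29 ± 0.15).

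Krt19 lies in the type I cluster on chromosome 11 and moved against those neighbours there that passed the filter. Of the 6 genes from Krt19 to Krt42, 4 passed the filter, and Krt19 rose while Krt16, Krt17 and Krt42 fell. The other 2, Krt9 and Krt14, had 2 and 5 counts in wild type and 0 and 18 in the knockout. Krt13, on the other side of Krt19, fell too, and like Krt16 it passed the filter only through its wild-type libraries. The next genes with enough counts beyond Krt42, Eif1 and Hap1, fell by 0.93 and 1.16 on the log2 scale. The neighbours were chosen by position alone, as the 3 genes of the table on each side.

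**Figure D3:**
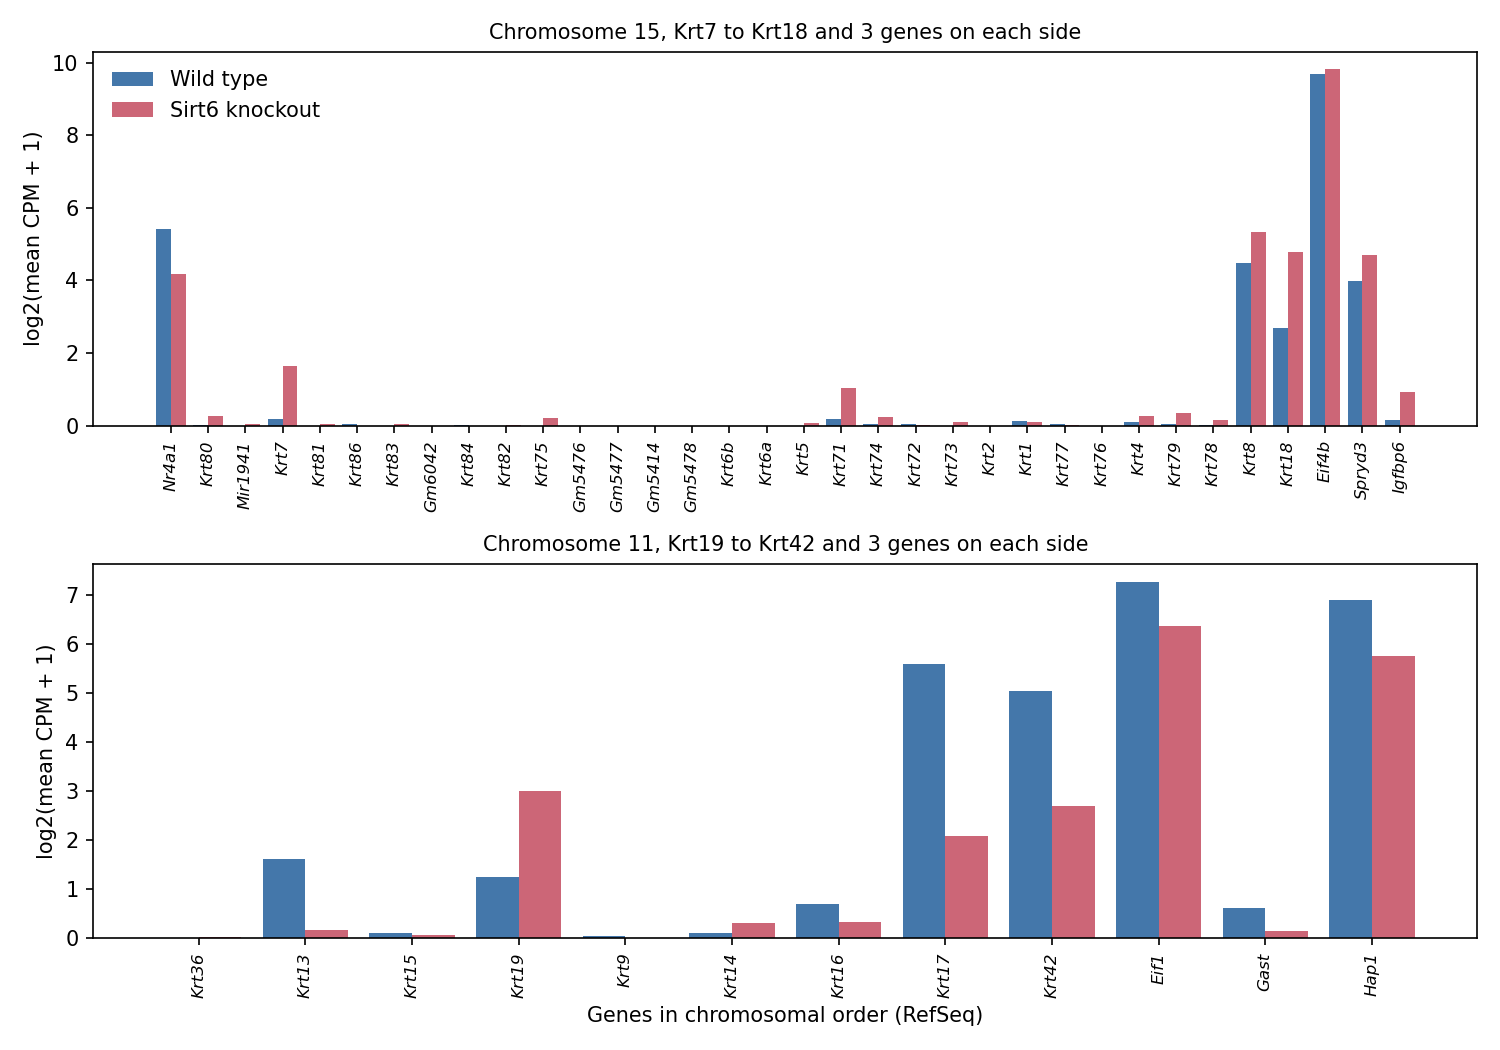
Mean level of the genes from Krt7 to Krt18 (top) and from Krt19 to Krt42 (bottom), with 3 genes on each side, in chromosomal order, as log2(mean CPM + 1) for wild type (blue) and knockout (red). The genes between Krt7 and Krt8 stay near 0 in both groups apart from Krt71, and Krt19 is higher in the knockout while Krt17 and Krt42 are lower.

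Tfap2c, the AP-2 gene shared by trophectoderm, stem cells and germ cells, measured 18.2, 17.7 and 19.2 CPM in wild type. In the knockout it measured 44.1, 39.1 and 35.8 CPM. All knockout libraries lay above all wild-type libraries, with a log2 fold change of 1.12 ± 0.11 (SE), or 2.17-fold (adjusted p = 9.53e-06, edgeR). Per kilobase it went from 5.59 ± 0.240 to 12.1 ± 1.26 CPM per kb (SD, n = 3), the highest level among the 6 regulators in the knockout.

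Tfap2a, which serves trophectoderm, surface ectoderm and neural crest, stayed near 1 CPM or below. Its counts were 37, 24 and 19 in wild type and 19, 14 and 13 in the knockout, or 1.04 ± 0.324 against 0.607 ± 0.0396 CPM (SD, n = 3). The groups did not overlap, but the lowest wild-type library lay close to the highest knockout library. The log2 fold change was -0.78 ± 0.30 (SE, adjusted p = 0.0455, edgeR). This call did not survive most alternatives. Without wild-type replicates 1 and 2 in turn the adjusted p was 0.229 and 0.0852, and without knockout replicates 1, 2 and 3 it was 0.0824, 0.125 and 0.0592. Without wild-type replicate 1 the estimate was -0.51. In the authors' deposited table Tfap2a had a log2 fold change of -0.69 and an adjusted p of 0.123. Antisense genes overlap it, and reads from them cannot be told apart from its own where strand was not used.

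The balance between the 2 AP-2 genes changed. Since Tfap2c rose, this does not by itself show that Tfap2a fell. The ratio of Tfap2a to Tfap2c counts was 0.0760, 0.0569 and 0.0382 in wild type and 0.0136, 0.0146 and 0.0182 in the knockout. The difference on the log2 scale was -1.84, with no overlap between the groups (exact permutation p = 0.1, the smallest possible). Of the other AP-2 genes, Tfap2e did not pass the test (-0.75 ± 0.53, adjusted p = 0.246, edgeR), Tfap2b had 8 and 3 counts over the 2 groups and Tfap2d had 0 in all libraries.

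Tead4, whose product binds DNA for YAP and opens the trophectoderm programme in the embryo, was the one regulator to fall far. It measured 29.1, 28.8 and 29.0 CPM in wild type and 9.67, 6.51 and 6.46 CPM in the knockout. Knockout replicate 1 was the highest of its group and still lay far below the wild-type libraries. The log2 fold change was -1.93 ± 0.15 (SE), a 3.80-fold fall (adjusted p = 2.40e-06, edgeR). Tead4 ranked 305 among the 14988 tested genes, counted from the largest fall. An annotated processed pseudogene lies within it on the other strand. The coefficient of variation was 0.569% in wild type and 24.3% in the knockout. With 688 to 781 counts per library, the wild-type value is smaller than counting error alone tends to give. It is therefore not a measure of the spread in wild type.

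Other genes of the TEAD and YAP system changed less. Of the 8 tested TEAD genes and cofactors, Tead4 included, 1 rose and 4 fell, against 27.9% and 27.8% of all tested genes. Tead1 fell by 0.59 ± 0.13 on the log2 scale (SE), and the TEAD inhibitor gene Vgll4 fell by 0.84. The coactivator gene Yap1 fell from 183 ± 0.892 to 110 ± 11.8 CPM (-0.73 ± 0.10). Tead2, at 102 ± 2.88 and 107 ± 8.97 CPM, did not pass the test (0.07 ± 0.10, adjusted p = 0.584, edgeR). Tead3 rose by 0.56 ± 0.21 from 3.02 ± 0.887 CPM (adjusted p = 0.0438), a call lost without any single library other than wild-type replicate 1 (adjusted p of 0.0563 to 0.168), so that 0 then rose. DESeq2 did not call it either (0.55, adjusted p = 0.0569). Vgll1 and Vgll2 had 0 counts in all libraries. Per kilobase, Tead2 was the highest TEAD gene in both groups, at 29.1 and 30.4 CPM per kb, and Tead4 went from 8.07 ± 0.0459 to 2.10 ± 0.512 (SD, n = 3).

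Of 16 genes of the Hippo pathway, which keeps YAP out of the nucleus in inner cells, 3 rose and 9 fell. Among all tested genes 27.9% were higher and 27.8% lower. Wwc2 (-1.54), Ajuba (-1.05), Amotl2 (-0.94) and Lats2 (-1.11) fell and the angiomotin gene Amot rose by 1.18. The kinase genes Lats1 and Stk3 rose by 0.43 and 0.44. Lats2, Amotl2 and Ajuba are also known targets of YAP and TEAD. Of 19 tested target genes 6 rose and 9 fell (median log2 fold change 0.01, as for all tested genes). Igfbp3 and Axl rose by 1.54 and 2.41, and Ptpn14 and Myof fell by 1.15 and 0.89.

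Cdx2, the homeobox gene that specifies trophectoderm, had 9, 8 and 2 counts in the wild-type replicates against 4, 2 and 1 in those of the knockout. In CPM the wild-type libraries were at 0.335, 0.335 and 0.0773 and the knockout libraries at 0.126, 0.0819 and 0.0501. The groups overlapped, and the ratio of summed counts per library size, wild type over knockout, was 2.70 (exact 95% interval 1.09 to 7.59, counting error only). Gata3, a zinc finger gene of the same step, had 5, 2 and 0 counts against 0, 1 and 0, a ratio of 6.96 (0.894 to 314). Elf5, an ETS factor gene of trophoblast stem cells, had 4, 1 and 1 counts against 1, 2 and 1, a ratio of 1.49 (0.354 to 7.18). A count of 0 allows a level of up to 0.0945 to 0.150 CPM depending on the library (3 counts), and differences in Gata3 and Elf5 were not detectable at this depth.

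Tested without a filter, edgeR gave adjusted p-values of 0.135 for Cdx2, 0.184 for Gata3 and 0.693 for Elf5, and DESeq2 gave 0.214, 0.271 and 0.793. In the authors' deposited table these genes had log2 fold changes of -0.89, -0.72 and -0.22 and adjusted p-values of 0.201, 0.285 and 0.791. Summed over libraries, none of the 3 had more counts in the knockout. The name of the set describes where these genes act in the embryo. In these cells the defining regulators were at or near 0 in both groups, and the rises were those of the simple keratins and Tfap2c.

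The relatives of these regulators that passed the filter were measured at higher levels. Of 4 tested GATA genes Gata6, Gata2 and Gata4 fell (-4.37, -2.11 and -1.76) and Gata1 rose by 1.45 from 29 to 80 counts. Gata6, with 5, 6 and 2 knockout counts, passed the filter only through wild type. Gata1, with 10, 7 and 12 wild-type counts, could not have passed without its knockout libraries. The opposite call could hardly have been made for either. The shares of all tested genes were 27.9% higher and 27.8% lower. Of the CDX genes, Cdx1 was at 1.87 ± 0.183 and 2.19 ± 0.391 CPM and did not pass the test (0.24 ± 0.20, adjusted p = 0.330, edgeR), and Cdx4 had 19 and 2 counts over the groups (lower with DESeq2 or without a filter). Of 5 tested genes of the ELF and related ETS group, 0 rose and 3 fell, namely Elf4 (-1.71), Elk4 (-0.89) and Elf1 (-0.48). Elf3, an epithelial ETS gene, was at 27.1 ± 2.40 and 31.2 ± 2.85 CPM (0.21 ± 0.11, adjusted p = 0.130), and Elf2 was at 0.21 ± 0.09 (adjusted p = 0.0802). With total counts as scaling both passed as higher (0.33 each), so that 2 rose. Elf2 alone passed with a mean of at least 1 CPM (0.23, adjusted p = 0.0490, edgeR) and without knockout replicate 1 (0.20, adjusted p = 0.0487), so that 1 rose.

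**Figure D4:**
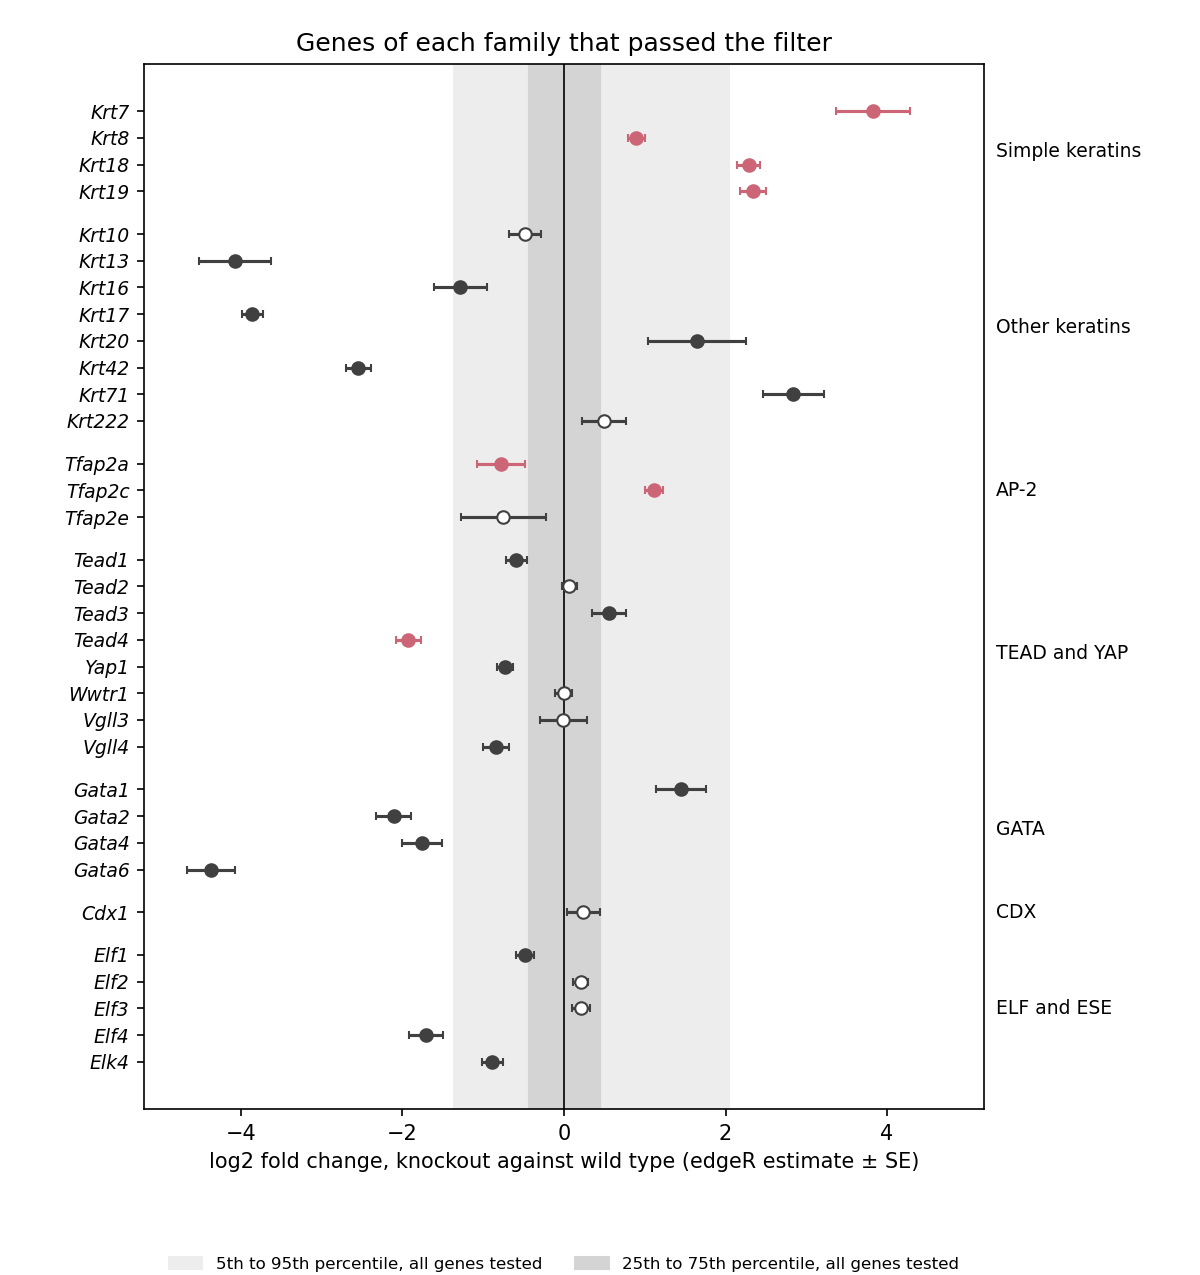
Log2 fold change of knockout against wild type with its standard error (edgeR) for genes that passed the filter, by family, with the simple keratins and regulators under study in red, other genes in grey, and open circles for genes that did not pass the test. Grey bands mark the range of all 14988 genes tested; Krt7, Krt18 and Krt19 lie above the 95th percentile of all genes, and Tead4 lies below the 5th.

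Of the 10 genes, 7 passed the filter, 5 rose and 2 fell, against 27.9% and 27.8% of all tested genes. Krt7, with 5, 0 and 6 counts in wild type, passed the filter only through its knockout libraries, so it could hardly have counted as a fall. The median log2 fold change of the 7 was 1.12, and that of all tested genes was 0.01. Their direction is not uniform and 3 genes are absent from these figures, so that they do not describe the set as a whole. The middle 90% of all tested genes lay between -1.36 and 2.04. In the authors' deposited table the same 6 genes other than Tfap2a passed an adjusted p of 0.05, with log2 fold changes of 3.24 for Krt7, 0.89 for Krt8, 2.25 for Krt18, 2.27 for Krt19, 1.11 for Tfap2c and -1.89 for Tead4.

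Other trophoblast genes did not follow a single direction. Of 26 tested genes of trophoblast stem cells and early trophectoderm, 9 rose and 9 fell, against 27.9% and 27.8% of all tested genes. The median log2 fold change of the 26 was -0.12. The number that rose was 5 without wild-type replicate 2, wild-type replicate 3 or knockout replicate 2. Ascl2, needed for the spongiotrophoblast, rose by 1.61 to 3.87 ± 0.829 CPM, and Nat8l, Bmp8b and the homeobox gene Dlx3 rose by 1.79, 1.01 and 1.91. Dlx3, and Sct and Tspan8 among the others that rose, passed the filter only through their knockout libraries. A fall could hardly have been called for them. Bmp4 (-2.37), Sox21 (-4.46), Ddah1 (-1.97) and the ETS gene Ets2 (-1.58) fell. Eomes, the T-box gene that acts with CDX2, was at 2.77 ± 0.544 and 2.18 ± 0.563 CPM and did not pass the test (-0.32 ± 0.23, adjusted p = 0.251, edgeR; named after its values were seen). Of 24 genes of differentiated trophoblast 16 did not pass the filter, and 9, among them Tpbpa, Prl3d1 and Prl3b1, had 0 counts in all 6 libraries. Of the 8 tested, 1 rose and 4 fell, Phlda2 among them (-1.20). The number that rose was 0 without wild-type replicate 1 or 2 and 2 without knockout replicate 2.

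A list of 23 pluripotency factors and chromatin regulators, several of which restrain trophectoderm genes in stem cells, had 3 genes that rose and 15 that fell. The shares of all tested genes were 27.9% higher and 27.8% lower. Without wild-type replicate 3 only 9 genes of the list fell. Klf5 fell most clearly (-2.44 ± 0.10), from 199 ± 10.2 to 36.7 ± 3.15 CPM. It is also required for trophectoderm in the embryo. Sall1 (-1.62), the Polycomb gene Ezh2 (-1.29) and Tbx3 (-1.35) fell, and the DNA methyltransferase genes Dnmt3a and Dnmt3b rose by 1.09 and 0.50. Pou5f1, which blocks the trophectoderm fate in stem cells, stayed abundant at 1651 ± 133 and 1199 ± 152 CPM (-0.46 ± 0.13, adjusted p = 0.0108, edgeR). Its call was lost without wild-type replicate 3 or knockout replicate 2 (adjusted p of 0.0535 and 0.0646).

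**Figure D5:**
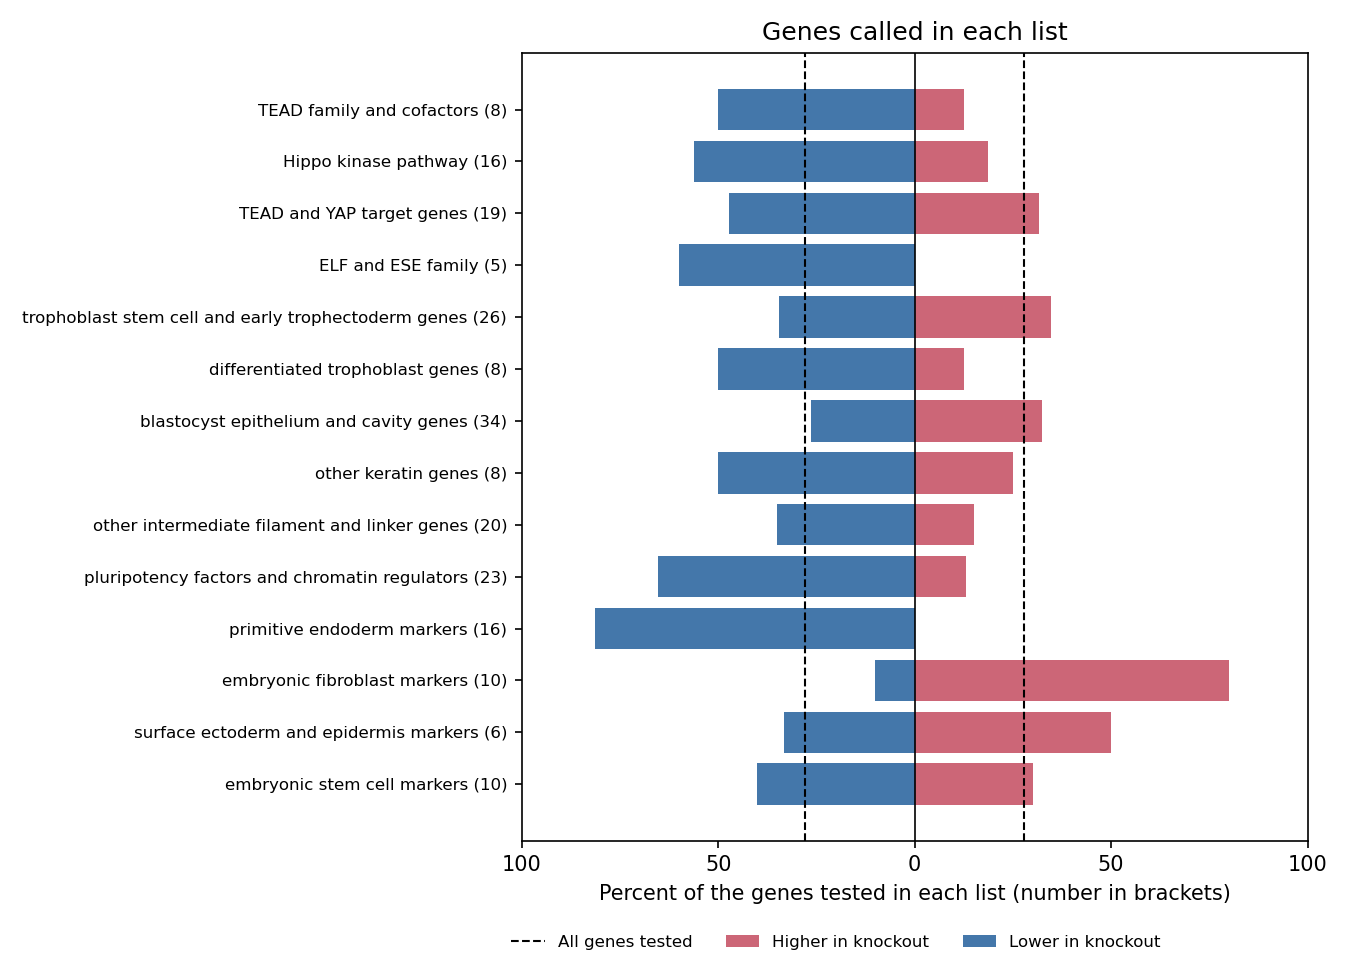
Percent of the tested genes of each list that were higher (red, right) or lower (blue, left) in the knockout at an adjusted p under 0.05 (edgeR), with the number tested in brackets and dashed lines at 27.9% and 27.8%, the shares of all genes tested. The early trophoblast list (26 genes) and the blastocyst epithelium list (34 genes) lie near these shares in both directions, primitive endoderm markers are mostly lower and fibroblast markers mostly higher.

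Markers of other cell types moved in these libraries too. Their counts below stand beside shares of 27.9% higher and 27.8% lower among all tested genes. In RNA from whole cultures, fewer cells of a type and less RNA per cell cannot be told apart. Primitive endoderm also makes KRT8 and KRT18. Of its 16 tested markers 13 fell and 0 rose, and their summed level was 1286 to 1424 CPM in wild type and 360 to 495 CPM in the knockout. Cubn and Sox7 fell by 4.73 and 3.69 on the log2 scale, and Ttr was at 0 in all libraries. Of 10 tested fibroblast markers 8 rose and 1 fell. Tagln rose from 2.21 ± 0.653 to 21.7 ± 3.89 CPM, and Acta2 and Col6a2 stayed below 4 CPM. The summed level was 533 to 629 CPM in wild type and 335 to 437 CPM in the knockout, most of it from Fn1, which fell by 0.82, and Lum was at 0. Of 6 tested surface ectoderm markers 3 rose and 2 fell (1 without any single wild-type library or knockout replicate 2), with summed levels of 89.8 to 97.1 and 101 to 109 CPM. Dlx3, which passed the filter only through its knockout libraries, is on this list too and rose by 1.91 on the log2 scale, from 19 to 73 counts. Of the genes of this list too low to test, Trp63 was at 0 in all libraries, Krt5 had 0 and 3 counts and Krt14 had 5 and 18. Of 10 stem cell markers 3 rose and 4 fell (2 without wild-type replicate 3 or knockout replicate 2), with summed levels of 6279 to 6854 and 6593 to 8179 CPM. The part of these cell types in the rise of the keratins was not tested.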

How the data were processed

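The authors deposited whole-number counts per gene symbol, with no normalization, for 6 libraries. Tools named without role or order in the submitters' processing notes are TopHat2 2.0.10, HTSeq 0.6.1 and DESeq2, and the build is mm9. Strandedness, gene models and read filters are not given in those notes. Per the file headers, the authors' deposited comparison holds a mean signal, log2 fold changes and their SE, the Wald score, and raw and adjusted p-value columns; it is quoted only where named.

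Titles gave the groups and tied columns to samples. The test was edgeR 4.0.16 (R 4.3.3), with TMM factors, filterByExpr at its defaults, then glmQLFit and the two-sided glmQLFTest on the 2 groups. P-values were Benjamini-Hochberg adjusted over 14988 genes with a threshold of 0.05. Each SE was obtained as the absolute log2 fold change over sqrt(F). Exon lengths came from GENCODE M21 (GRCm38), matched by symbol for 21706 genes; promoter windows and gene order came from RefSeq (GRCm38.p6), and no coordinates of the authors' build were used. Ratios and shares were compared by exact permutation over the libraries, which cannot give a p below 0.1. Intervals are exact Clopper-Pearson at 95% and, like the floor of 3 counts, cover counting error only. A further 27 rows carry dates in place of symbols and are not named. The Krt7 to Krt19 ratio was planned without a pseudocount; 0.5 was added because of a count of 0.

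Beside the 10 genes, named genes were Sirt6, the tested genes of their families, and up to 4 called genes in each direction from each other list, with the smallest adjusted p; others (gene-order neighbours, Eomes, Cdx4 and other low-count genes) were named after values were seen or by position. The genes and the 17 other lists were chosen with earlier results of these data known. Alternatives were DESeq2 1.42.0 size factors, total counts, no filter, a mean of at least 1 CPM, DESeq2, limma-voom (limma 3.58.1), the replicate number as a block, and each library left out. Keratin shares, with their alternatives, were added after the data were seen. On simulated counts for this comparison, with 14410 genes tested, the fit recovered 68% of genes changed 1.5-fold and 100% of those changed 2-fold, 4-fold or 8-fold, and 3.16% of its calls were unchanged genes. In that simulation few genes changed, equally up and down, all with a wild-type mean of at least 1 CPM. Both groups had the same spread. The real comparison differs in these respects, with 55.7% of genes called. The rates were not measured for genes as low as Krt7. Replicates of a group differed by more than sampling noise. Chi-square over degrees of freedom was 3.90 to 11.9 between wild-type libraries and 22.3 to 93.7 between knockout libraries.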

Additional observations from a re-analysis of the deposited data

How the results depend on the processing

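Krt7, Krt8, Krt18, Krt19, Tfap2c and Tead4 kept their direction and passed the threshold under all 13 alternatives, with log2 fold changes of 3.29 to 4.34, 0.82 to 1.02, 2.15 to 2.40, 2.26 to 2.47, 1.04 to 1.24 and -2.15 to -1.80. Tfap2a passed in 3 of the 12 alternatives that tested it (-0.99 to -0.51, adjusted p of 0.0202 to 0.229). With total counts, no filter, a mean of at least 1 CPM (which left Tfap2a untested), DESeq2 or limma-voom, 1 of the 10 genes fell in place of 2, and with single libraries left out the number ran from 1 to 2. With total counts the median of all genes moved from 0.01 to 0.13, and 62.3% of all calls were higher in the knockout, against 50.1%. Without length scaling the share of the 4 simple keratins differed by 57.4 percentage points in place of 60.5. The difference in Krt7 to Krt19 ratio was 1.47 from summed counts.

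Same-numbered libraries deviated together at correlations across genes of 0.208, -0.0250 and 0.201 for numbers 1, 2 and 3, so the titles' numbers were not taken to pair the samples. With the replicate block 9352 genes were called in place of 8345, and not every library correlated best with its own number. All counts of the 10 genes were the same under the block. Depth limits Cdx2, Gata3 and Elf5 most.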

Other observations

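Genes of the epithelial layer and cavity of the blastocyst were mixed. Of 34 tested, 11 rose and 9 fell, against 27.9% and 27.8% of all genes. The tight junction genes Cldn6, Cldn7 and Ocln rose by 2.07, 1.36 and 1.28 (log2), Cldn6 from 12.7 ± 0.517 to 53.4 ± 2.80 CPM (SD, n = 3), and the plakophilin gene Pkp2 by 0.88. The desmoglein gene Dsg2, the water channel gene Aqp3, the sodium pump gene Atp1b1 and the galectin gene Lgals3 fell (-1.72, -1.53, -1.38 and -1.70).

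Several keratin genes below the filter had more counts in the knockout. Krt80 had 1 count in wild type and 17 in the knockout, summed over libraries, Krt79 had 3 and 21, and Krt75 had 0 and 13. They were chosen after their values were seen.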
